A study of Mus musculus with 12 samples.

Results

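T cell receptor signalling genes are the genes for the receptor complex of T cells, for the surface molecules that tune it and for the kinases, adaptors, enzymes, phosphatases and transcription factors that carry its signal. The set examined here was a named list of 34 genes, chosen by function and not from a fold change, but with earlier results of these data known. Of these, 33 were measured, out of 18193 genes on the array. Lck, the kinase that starts signalling at the receptor, was not analysed here. Of the probe sets annotated to 1 symbol only, the brightest one, by its mean over the 12 arrays, stood for the gene.

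Gene expression was measured with Affymetrix arrays in 4 sorted populations of C57Bl/6 mice aged 10 to 12 weeks. Haematopoietic stem cells (HSC, 3 arrays) were bone marrow cells without lineage markers that carried cKit, Sca1 and CD150 but not Flt3. Multipotent progenitors (MPP, 3 arrays) shared the absence of lineage markers and the presence of cKit and Sca1, but carried Flt3 and lacked CD150. Pre-megakaryocyte/erythrocyte progenitors (PreMegE, 4 arrays) were lineage-negative marrow cells with cKit and CD150 and without Sca1, CD105 and CD41, and are a precursor stage of platelet and red cell formation. The CD4+ T cells (2 arrays) came from spleen and were sorted as positive for CD4 and negative for CD8, B220 and NK1.1. No mouse carried an engineered allele or received a treatment, as far as the labels say. The PreMegE and the CD4+ T cell arrays came from a pair of earlier studies, so study and population cannot be told apart in any comparison but MPP against HSC. The HSC and MPP samples were sorted separately, but no animals are named, so the p-values measure only the spread between these samples.

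As background, the receptor of a T cell recognises a peptide on another cell through its variable chains, which cannot signal by themselves. The CD3 and zeta chains bring in tyrosine kinases, the kinases phosphorylate the adaptors LAT and SLP-76 (encoded by Lcp2), and the adaptors gather phospholipase C gamma 1, VAV1 and RAS activators. Calcium then brings NFAT proteins into the nucleus, and protein kinase C theta and MALT1 lead to NF-kappa B. Stem cells and early progenitors have no T cell receptor, but several of these signalling proteins also serve other receptors of blood cells.

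Promoter sequences are shown for 6 genes on which the results below turn. Cd3d, Cd3g and Cd3e are neighbours that were higher in T cells than in every marrow population, Ctla4 and Cd27 were also raised in MPP, and Nfatc2 was low in PreMegE. Each run is the 250 bases before the RefSeq start of the gene, 5′ to 3′ on the strand of the gene, in assembly GRCm38.p6. Capitals mark matches, on either strand, to 5 short motifs, those of the ETS, E-box, TCF, GATA and RUNX factors, whose letters are spelled out after the sequences.
Cd3d, chr9:44981536-44981785, plus strand: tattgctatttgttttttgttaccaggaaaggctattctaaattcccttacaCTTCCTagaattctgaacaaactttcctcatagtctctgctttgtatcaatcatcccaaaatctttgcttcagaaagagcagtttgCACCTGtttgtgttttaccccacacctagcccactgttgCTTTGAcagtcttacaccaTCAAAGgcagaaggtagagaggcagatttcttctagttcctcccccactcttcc
Cd3g, chr9:44980432-44980681, minus strand: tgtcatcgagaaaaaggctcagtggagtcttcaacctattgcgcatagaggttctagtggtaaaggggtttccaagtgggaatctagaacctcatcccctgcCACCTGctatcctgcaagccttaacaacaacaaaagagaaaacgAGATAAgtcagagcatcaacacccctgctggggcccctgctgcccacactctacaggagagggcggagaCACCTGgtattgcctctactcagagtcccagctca
Cd3e, chr9:45009612-45009861, minus strand: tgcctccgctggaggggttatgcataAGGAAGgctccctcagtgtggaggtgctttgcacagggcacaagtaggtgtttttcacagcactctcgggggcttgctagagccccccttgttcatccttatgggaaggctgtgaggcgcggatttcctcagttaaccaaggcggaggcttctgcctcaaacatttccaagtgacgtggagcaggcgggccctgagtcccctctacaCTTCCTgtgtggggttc
Ctla4, chr1:60908775-60909024, plus strand: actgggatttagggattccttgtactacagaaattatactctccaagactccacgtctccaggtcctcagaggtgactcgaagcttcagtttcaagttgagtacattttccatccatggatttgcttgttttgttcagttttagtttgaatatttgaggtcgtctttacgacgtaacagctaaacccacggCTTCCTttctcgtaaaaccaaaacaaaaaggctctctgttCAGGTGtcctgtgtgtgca
Cd27, chr6:125237028-125237277, minus strand: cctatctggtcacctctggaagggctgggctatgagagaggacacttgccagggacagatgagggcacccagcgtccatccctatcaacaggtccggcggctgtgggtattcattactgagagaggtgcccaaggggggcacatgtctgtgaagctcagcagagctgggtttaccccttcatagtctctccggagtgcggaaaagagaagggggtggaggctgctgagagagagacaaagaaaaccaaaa
Nfatc2, chr2:168601658-168601907, minus strand: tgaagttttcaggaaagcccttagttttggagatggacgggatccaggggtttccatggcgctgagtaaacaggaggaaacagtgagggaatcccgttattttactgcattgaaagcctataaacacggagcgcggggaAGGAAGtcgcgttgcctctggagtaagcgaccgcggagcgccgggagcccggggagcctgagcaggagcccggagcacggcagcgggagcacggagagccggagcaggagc
In these 6 promoters, 0 matches overlapped another match. Cd3d held 4 matches, Cd3g 3, Cd3e 2, Ctla4 2, Nfatc2 1 and Cd27 0. The RefSeq promoter table held 24 of the 34 genes, Lck among them. The ETS motif was searched as AGGAAG and stood in 15 of these 24 promoters (62.5%), against 29.2% of all 27025 promoters of the same length. The E-box motif was searched as CAGGTG and stood in 9 of 24 (37.5%) against 17.1% of all promoters. The TCF motif was searched as CTTTGA and stood in 7 of 24 (29.2%) against 14.0%. The GATA motif was searched as AGATAA and as another form, TGATAA, and stood in 5 of 24 (20.8%) against 17.0%. The RUNX motif was searched as TGTGGT and stood in 2 of 24 (8.33%) against 14.2%. Every search covered both strands. A match describes the letters only, and these shares were not tested.

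Marker lists were read against a reference level. T cell genes from outside the pathway lay above it in CD4+ T cells for 15 of 16 genes, HSC markers in HSC for 8 of 10, MPP markers in MPP for 8 of 9 and PreMegE markers in PreMegE for 11 of 11, beside 40.0% to 44.2% of all genes. Not all lists separated the populations: PreMegE markers also exceeded it for 11 of 11 in HSC, with only 4 called higher and 2 lower in PreMegE than in HSC, and MPP markers for 6 of 9 in T cells. The reference level was the 95th percentile of 61 genes of tissues such as liver, muscle and skin, taken on the same array, and a gene counted as above it where every array of a population exceeded it. It lay between 5.02 and 5.74 on the log2 scale. In the CD4+ T cells, 3 of 11 B cell markers, 3 of 10 NK cell markers, 4 of 12 macrophage markers, 3 of 8 red cell markers and 0 of 11 neutrophil markers exceeded it. Of the B cell markers, Cd79b was the highest there at 7.12 and 7.14, with Ms4a1 at 6.45 and 6.76 and Pax5 at 3.46 and 3.37. Ighm, an immunoglobulin gene listed with the MPP markers, was at 12.28 and 12.49 in the T cell arrays. The summed level of the 11 neutrophil markers ran from 8.89 to 12.06 in HSC, 7.48 to 8.40 in MPP, 9.37 to 11.27 in PreMegE and 7.12 to 7.65 in T cells on the log2 scale, highest in HSC replicate 2 and PreMegE replicate 1. The part of these other cells in the results was not tested.

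The set separated CD4+ T cells from all 3 marrow populations. Differences are log2 differences of array intensity, tested with limma in a single model of all 12 arrays and called at a Benjamini-Hochberg adjusted p under 0.05. Against HSC, 31 of 33 genes were called higher in T cells and 1 lower (17.0% and 20.8% of all genes), with a median difference of 3.64 against -0.06 over all genes. Against MPP, 31 were higher and 1 lower (15.5% and 20.0% of all genes), with a median of 3.39 against -0.02. Against PreMegE, 32 were higher and 0 lower (16.3% and 16.8% of all genes), with a median of 4.01 against -0.06. The same 31 genes (93.9%) were higher in T cells than in every marrow population, as were 9.73% of all genes. The exceptions were Zap70 and Vav1. In sorted bulk samples, fewer cells of a type and less RNA per cell cannot be told apart.

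**Figure D1:**
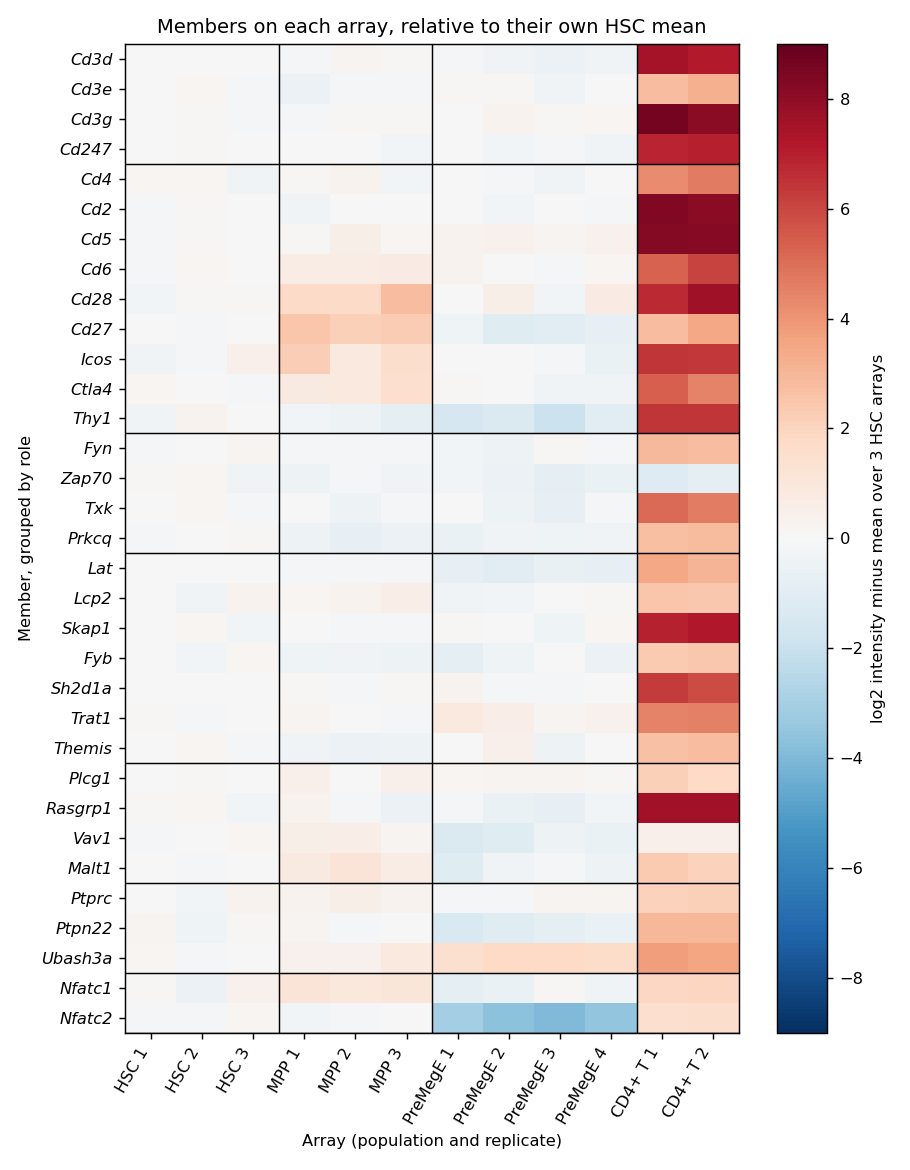
Heat map of the 33 genes (rows, by role) on the 12 arrays (columns), coloured by log2 intensity minus the mean of the same gene over the 3 HSC arrays. The T cell columns are red for all genes but Zap70 (blue) and Vav1 (close to white), and the MPP columns are red for a group of surface molecules that includes Cd28, Cd27, Icos and Ctla4.

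All 4 genes of the receptor complex were called higher in T cells in all 3 comparisons. Cd3d, Cd3e and Cd3g encode the CD3 delta, epsilon and gamma chains, and Cd247 encodes the zeta chain, whose tails are the first substrates of the receptor kinases. Cd3g was read at 2.60, 2.72 and 2.43 in HSC, 2.48, 2.68 and 2.70 in MPP, 2.61, 2.87, 2.66 and 2.73 in PreMegE, and 11.21 and 10.73 in T cells (log2 intensity). The 10 marrow arrays thus formed 1 narrow band, far below both T cell arrays, and the difference from HSC was 8.39 ± 0.18 (SE; limma adjusted p = 4.3e-14). Cd3d ran from 3.08 to 3.87 on the marrow arrays against 11.06 and 10.71 in T cells. Cd247 ran from 3.37 to 3.80 against 10.55 and 10.68, a difference from HSC of 6.91, while its other 3 probe sets gave 2.30, 2.21 and -0.13, the last not called (adjusted p = 0.624). Cd3e stood out among the CD3 genes in having a smaller contrast: its marrow arrays ran from 4.97 to 5.66 and its T cell arrays were at 8.23 and 8.69, a difference from HSC of 2.98 ± 0.20 (limma adjusted p = 6.4e-09). Cd3e was also the only gene of the complex to exceed the reference level in a marrow population, PreMegE, where it was read at 5.61, 5.57, 5.19 and 5.54. Its HSC arrays overlapped these, at 5.47, 5.66 and 5.32 (difference -0.01, limma adjusted p = 0.98), but not all of them exceeded the reference level. That level was taken on each array and ran from 5.28 to 5.74 in HSC and from 5.02 to 5.56 in PreMegE. Among the marrow populations the complex gave 1 call in 12 tests, Cd3d in PreMegE below MPP by 0.41 ± 0.15 (limma adjusted p = 0.0405). That call ended, with adjusted p between 0.0512 and 0.188, when any 1 of 6 arrays was left out, namely HSC replicate 1, MPP replicates 2 and 3 and PreMegE replicates 2, 3 and 4. Cd3d, Cd3e and Cd3g are neighbours on chromosome 9, with 0 protein-coding genes between Cd3d and either of the others.

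All 9 surface molecules were called higher in T cells in all 3 comparisons. Cd4 encodes the co-receptor used for the sort, so its rise restates how the cells were chosen: it was read at 9.11 and 9.49 in T cells and between 4.50 and 5.13 on the marrow arrays. Cd2, an adhesion molecule, and Cd5, an inhibitory scavenger receptor family member, were near the bottom of the scale in marrow. Cd2 ran from 2.49 to 2.97 there against 11.20 and 10.93 in T cells, and Cd5 from 2.60 to 3.23 against 11.00 and 10.88. Thy1, the classical mouse T cell surface glycoprotein, was at 11.23 and 11.26 in T cells. The 5 others, Cd6, Cd28, Cd27, Icos and Ctla4, were also the ones that differed between MPP and HSC and are described with the marrow populations below.

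The kinases were less alike. Fyn encodes a SRC family kinase that is used by many cell types, and was read at 10.94 and 10.76 in T cells against 7.51 to 8.22 on the marrow arrays, 2.85 ± 0.19 above HSC (limma adjusted p = 7.3e-09). Prkcq, which encodes protein kinase C theta, was at 10.85 and 11.00 against 7.39 to 8.23. Both were therefore well above the reference level in marrow and higher again in T cells. Txk, a TEC family kinase, was by contrast low in marrow (2.93 to 3.79) and was read at 8.71 and 8.23 in T cells.

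Zap70, which encodes the kinase that docks on phosphorylated CD3 and zeta chains, depended on the probe set. Its brightest probe set was read at 7.03, 7.08 and 6.55 in HSC, 6.41, 6.78 and 6.57 in MPP, 6.63, 6.39, 6.10 and 6.26 in PreMegE, and 5.72 and 6.01 in T cells. On it T cells were lower than HSC by 1.02 ± 0.21 (limma adjusted p = 8.9e-04) and than MPP by 0.72 ± 0.21 (adjusted p = 0.0116), the latter no longer called without MPP replicate 2 (adjusted p = 0.051) or CD4+ T cell replicate 1 (0.115). The other 2 probe sets went the opposite way. The second was read at 3.44 to 4.17 on the marrow arrays and 6.68 and 6.93 in T cells, and the last at 3.33 to 3.97 and 8.34 and 8.22. Their differences from HSC were 2.83 and 4.76 (adjusted p = 4.8e-08 and 1.2e-09). Whether Zap70 is present in stem cells and lower in T cells therefore has no single answer on this array, and why the probe sets differ was not tested.

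**Figure D2:**
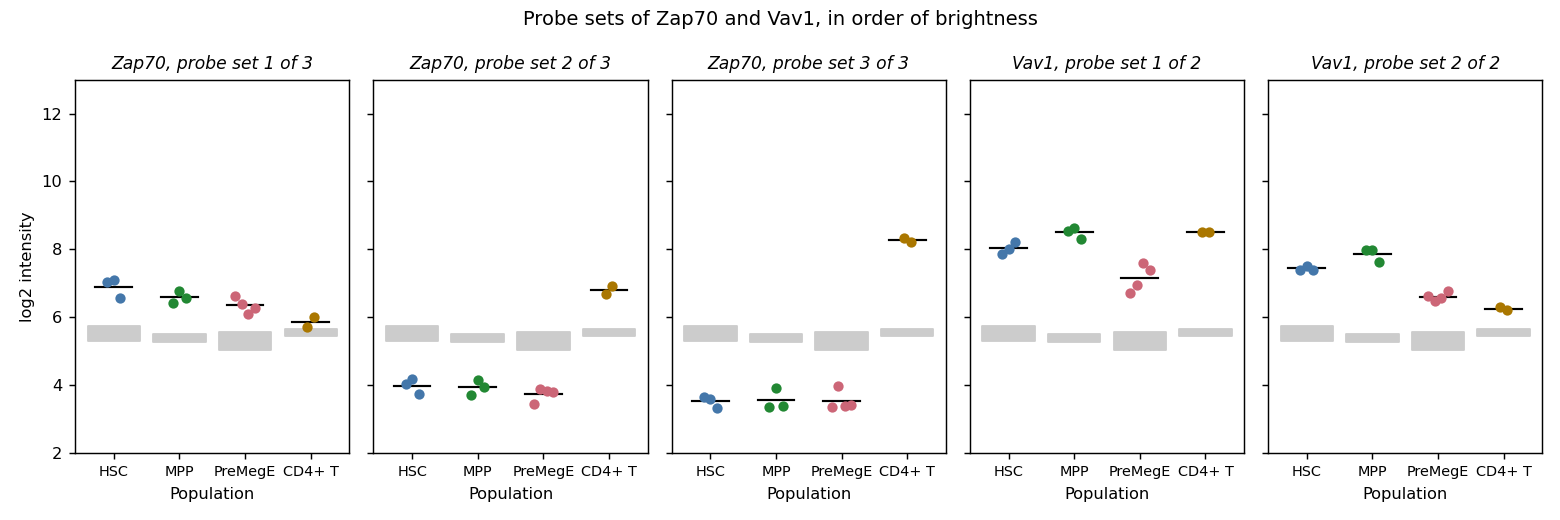
Log2 intensity of the 3 probe sets of Zap70 and the 2 of Vav1 on each array (points) with population means (lines), and the range of the reference level over the arrays of a population (grey). The brightest Zap70 probe set is lowest in CD4+ T cells, the other 2 are highest there, and the second Vav1 probe set is also lowest in T cells.

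The adaptors fell into a group already above the reference level in marrow and a group that was not. Lat encodes the membrane scaffold LAT, Lcp2 encodes SLP-76, and Fyb encodes ADAP, an adaptor that links the receptor to integrins. Lat was read at 7.41, 7.36 and 7.33 in HSC, 7.27, 7.15 and 7.21 in MPP, 6.63, 6.37, 6.72 and 6.64 in PreMegE, and 10.81 and 10.39 in T cells, so that T cells were 3.24 ± 0.17 above HSC (limma adjusted p = 4.4e-10). Lcp2 ran from 7.38 to 8.30 in marrow against 10.20 and 10.16, and Fyb from 7.93 to 9.02 against 11.21 and 11.23. The second group held Skap1, which encodes the partner of ADAP, Sh2d1a, which encodes SAP, Trat1, which encodes a transmembrane adaptor of the receptor, and Themis, which encodes a regulator of thymocyte selection. Skap1 ran from 2.76 to 3.31 in marrow and was at 10.02 and 10.34 in T cells. Sh2d1a ran from 2.35 to 2.87 against 8.82 and 8.43, Trat1 from 3.36 to 4.37 against 7.97 and 8.03, and Themis from 3.44 to 4.41 against 6.57 and 6.74.

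A similar division held for the enzymes. Plcg1 encodes phospholipase C gamma 1, which produces the calcium signal, and was read at 9.46 and 9.15 in T cells against 7.28 to 7.78 on the marrow arrays, 1.96 ± 0.17 above HSC (limma adjusted p = 1.4e-07). Its second probe set did not repeat this: it ran from 3.87 to 4.75 in marrow against 3.79 and 3.56, with differences of -0.55, -0.35 and -0.77 from HSC, MPP and PreMegE. Rasgrp1, a RAS activator that responds to diacylglycerol, ran from 2.54 to 3.55 in marrow and was at 10.85 and 10.82 in T cells (7.58 ± 0.23 above HSC, limma adjusted p = 1.3e-12). Its other 3 probe sets were also called higher in T cells than in HSC, by 0.76, 2.83 and 0.90. Vav1, an exchange factor for RAC that is used throughout blood cells, was read at 7.86, 8.02 and 8.22 in HSC, 8.54, 8.64 and 8.31 in MPP, 6.72, 6.94, 7.58 and 7.40 in PreMegE, and 8.51 and 8.51 in T cells. T cells and MPP overlapped on Vav1 (0.01 ± 0.23, adjusted p = 0.98), and T cells were called above PreMegE only (1.35 ± 0.22, adjusted p = 1.3e-04). Its second probe set was lower in T cells, at 6.29 and 6.21, than on any marrow array (6.46 to 7.99). Malt1, the protease of the NF-kappa B branch, was at 7.74 and 7.42 in T cells and between 4.26 and 6.50 in marrow.

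Phosphatases and inhibitors were higher in T cells as well. Ptprc encodes CD45, the pan-leukocyte phosphatase that primes SRC family kinases, and was read at 10.35 to 11.17 in marrow and 12.71 and 12.80 in T cells. Ptpn22, which encodes a phosphatase that restrains those kinases, ran from 5.27 to 6.91 against 9.60 and 9.60. Ubash3a, which encodes an inhibitor of receptor signalling known as STS-2, was at 8.70 and 8.44 in T cells, 3.64 ± 0.20 above HSC (limma adjusted p = 6.6e-10). Of the NFAT genes, Nfatc1 was at 9.45 and 9.49 in T cells and Nfatc2 at 9.67 and 9.75. The T cell difference of Nfatc2 was 1.58 ± 0.22 from HSC but 5.14 ± 0.21 from PreMegE. Nfatc1 differed from MPP by 0.83 ± 0.28 (limma adjusted p = 0.0289), a call that ended without MPP replicate 2 or 3 or either T cell array (adjusted p 0.0608 to 0.118).

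**Figure D3:**
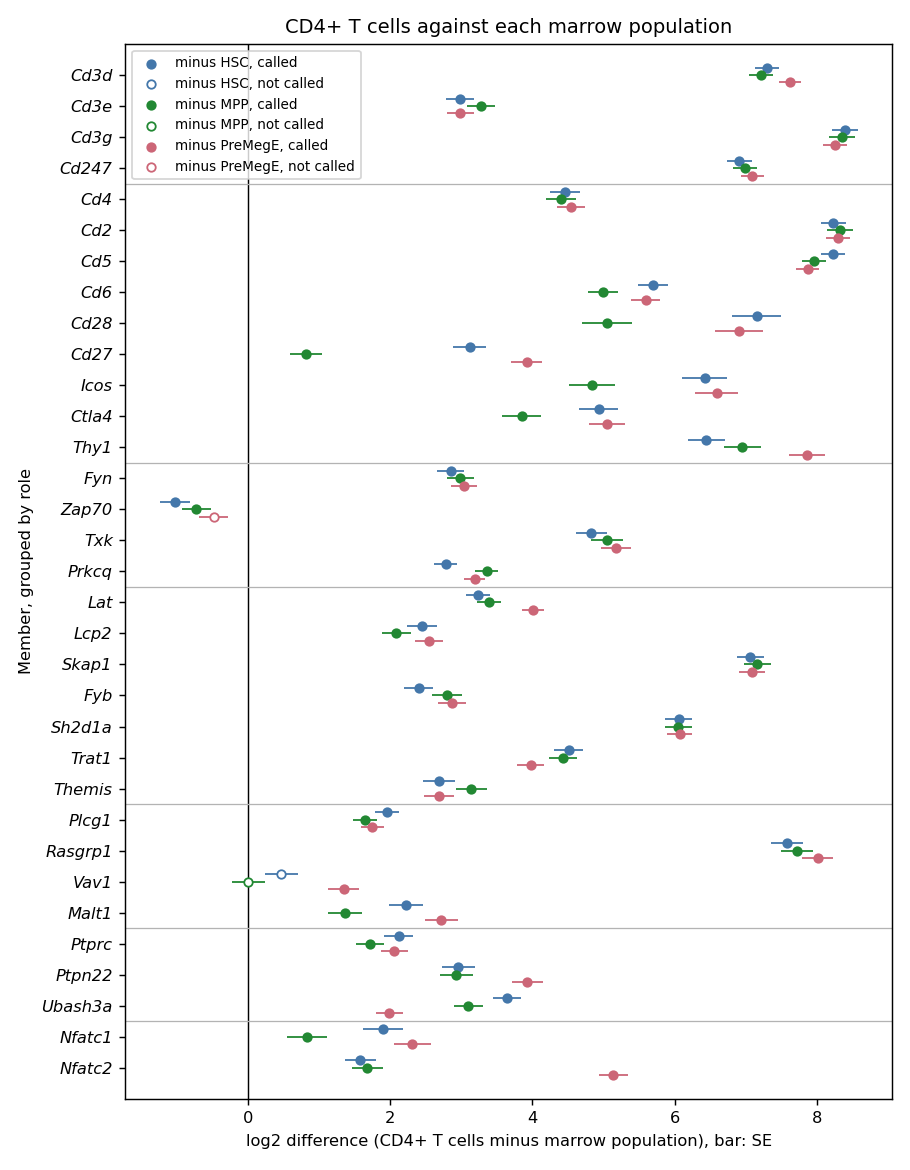
Log2 difference of CD4+ T cells from HSC (blue), MPP (green) and PreMegE (red) for the 33 genes, with standard errors as bars and filled points where the limma adjusted p was under 0.05. Most genes lie to the right of 0, from about 1 to over 8, with Zap70 to the left and Vav1 close to 0.

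Which genes of the set were already expressed in stem cells and progenitors was read against the reference level. In HSC 13 of 33 genes exceeded it, in MPP 14, in PreMegE 12 and in T cells all 33, whereas over all genes the shares were 41.6%, 44.2%, 40.9% and 40.0%. The marrow counts were thus near the shares of all genes, and only the T cell count was far above. Shares of all genes above it in all 3 marrow populations, in some or in none are not given here. The 10 genes above it in all 3 marrow populations were Fyn, Zap70, Prkcq, Lat, Lcp2, Fyb, Plcg1, Vav1, Ptprc and Nfatc1. For Zap70 and Plcg1 this rests on the brightest probe set, since the other 2 of each ran from 3.33 to 4.17 and from 2.92 to 4.75 on the marrow arrays, below the reference level. Further probe sets of Lcp2, Ptprc and Nfatc1 did not exceed it on every PreMegE array either. There the second of Lcp2 was at 4.62, 4.81, 5.05 and 4.63, and the second of Ptprc at 4.18, 4.97, 5.41 and 3.97. The third of Nfatc1 was at 5.04, 4.67, 4.18 and 4.88, although its second stayed above. The second probe sets of Fyn, Fyb and Vav1 also stayed above it in all 3 populations. The 10 genes hold no receptor chain and no co-stimulatory molecule, and 8 of them were called higher again in T cells in every comparison, with a median difference from HSC of 2.26 over the 10. Another 6 genes exceeded it in only some: Cd27 and Ptpn22 in HSC and MPP, Nfatc2 likewise in HSC and MPP, Malt1 in MPP, and Cd3e and Ubash3a in PreMegE. For Cd3e the means were 5.47 in PreMegE and 5.48 in HSC, so this does not set PreMegE apart from HSC.

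The 17 genes that exceeded the reference level in no marrow population were Cd3d, Cd3g, Cd247, Cd4, Cd2, Cd5, Cd6, Cd28, Icos, Ctla4, Thy1, Txk, Skap1, Sh2d1a, Trat1, Themis and Rasgrp1. All 17 were called higher in T cells in all 3 comparisons (9.73% of all genes), with a median difference from HSC of 6.44. These genes were picked by their low marrow readings, and all 33 exceeded the level in T cells. The calls, and the gap to the median of 2.26 for the 10 genes above, therefore largely restate the selection. Several of these probe sets lay at the bottom of the scale in marrow: 8 of 33 had an HSC mean under the lower quartile of all genes, and such a mean was found for 6 in MPP, for 10 in PreMegE and for 0 in T cells. By definition 25% of all genes lie under that quartile, so the marrow counts were near the share of all genes. A level under the quartile does not show whether a transcript is absent. The count above the reference level depended on where it was set, and with the second highest of the 61 genes in its place 8 genes exceeded it in HSC and 6 in MPP.

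Between MPP and HSC, the comparison within a single study, 7 genes were higher in MPP and 1 lower (6.38% and 4.93% of all genes), with a median difference of 0.04 against -0.03 over all genes. The 7 were Cd6, Cd28, Cd27, Icos, Ctla4, Malt1 and Nfatc1. The same 7 were also higher in MPP than in PreMegE, a pattern that 21.2% of the set and 4.63% of all genes shared. Without MPP replicate 2, 5 genes of the set were called between MPP and HSC in all. With the most neutrophil-marked arrays, HSC replicate 2 and PreMegE replicate 1, both left out, 8 were called. None of the 7 was a CD3 or zeta chain, and 5 of the 7 encode surface receptors that regulate a T cell response.

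Cd27, which encodes a co-stimulatory receptor of the TNF receptor family that is also a known surface marker of progenitors, had the largest difference. It was read at 6.16, 6.08 and 6.23 in HSC, 8.63, 8.31 and 8.43 in MPP, 5.78, 5.04, 5.18 and 5.43 in PreMegE, and 8.94 and 9.61 in T cells. The populations did not overlap, and MPP lay 2.30 ± 0.20 above HSC (4.92-fold, limma adjusted p = 2.5e-06). MPP came close to T cells on Cd27: the difference between them was 0.82 ± 0.23 (adjusted p = 0.00963). Leaving out CD4+ T cell replicate 2 gave 0.49, which was not called (adjusted p = 0.197).

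Cd28, Ctla4 and Icos encode a receptor family: CD28 and ICOS co-stimulate, and CTLA-4 inhibits. They are consecutive protein-coding genes on chromosome 1, with Ctla4 between the other two. Cd28 was read at 2.40, 2.77 and 2.79 in HSC, 4.41, 4.40 and 5.47 in MPP, 2.62, 3.18, 2.44 and 3.39 in PreMegE, and 9.34 and 10.28 in T cells. Every MPP array was above every HSC and PreMegE array, by 2.10 ± 0.32 over HSC (limma adjusted p = 3.5e-04), and still far below T cells. The second Cd28 probe set gave a smaller difference, 0.65 ± 0.19 over HSC (adjusted p = 0.0486). Icos was at 3.73, 3.91 and 4.51 in HSC, 6.29, 4.96 and 5.62 in MPP, 4.01, 4.11, 3.94 and 3.43 in PreMegE, and 10.50 and 10.42 in T cells, with MPP 1.58 ± 0.29 above HSC (adjusted p = 0.00167). The other 2 probe sets of Icos did not show it, with MPP above HSC by 0.13 and 0.04 (adjusted p = 0.84 and 0.952).

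Ctla4 was at 3.50, 3.30 and 3.10 in HSC, 4.10, 4.21 and 4.84 in MPP, 3.40, 3.34, 3.00 and 2.99 in PreMegE, and 8.67 and 7.79 in T cells. The 3 MPP arrays were again the highest of the 10 marrow arrays, 1.08 ± 0.24 above HSC (limma adjusted p = 0.00736). Cd28 and Ctla4 nevertheless stayed below the reference level on all 3 MPP arrays. Cd6 encodes a receptor related to CD5 and lies next to Cd5 on chromosome 19. Cd6 was read at 4.54, 4.57 and 4.59 in MPP against 3.70, 4.03 and 3.87 in HSC and 3.74 to 4.19 in PreMegE, whereas Cd5 was at 2.83, 3.23 and 2.87 in MPP, overlapping HSC. The Cd6 difference of 0.70 ± 0.19 from HSC (adjusted p = 0.0268) was not called without HSC replicate 1 or 3 or any 1 MPP array (0.0588 to 0.1), and its difference from PreMegE not without MPP replicate 2 or 3 (0.052 and 0.0578).

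Malt1 and Nfatc1 were the signalling genes among the 7. Malt1 was read at 5.39, 5.27 and 5.39 in HSC, 6.16, 6.50 and 5.99 in MPP, and 4.26, 5.06, 5.22 and 4.89 in PreMegE. MPP was above HSC by 0.87 ± 0.22 (limma adjusted p = 0.017), which was not called without HSC replicate 2 (adjusted p = 0.0597) or MPP replicate 2 (0.0891). Nfatc1 was at 7.71, 7.01 and 7.99 in HSC, 8.74, 8.53 and 8.65 in MPP, and 6.73, 6.94, 7.68 and 7.27 in PreMegE, with MPP 1.07 ± 0.25 above HSC (adjusted p = 0.0106). Without HSC replicate 2, the lowest of its group, the Nfatc1 difference was 0.79 (adjusted p = 0.0534), and its next 2 probe sets by brightness gave 0.31 and 0.08. The gene called lower in MPP was Prkcq, read at 8.07, 8.15 and 8.23 in HSC, 7.66, 7.39 and 7.63 in MPP and 7.58 to 7.83 in PreMegE. It was the only gene of the set higher in HSC than in both progenitors (3.03% of the set, near the 2.17% of all genes). The difference was 0.58 ± 0.14 over MPP (adjusted p = 0.0136, and 0.073 without MPP replicate 2). Over PreMegE it was 0.41 ± 0.13 (0.0289, and 0.0674 to 0.0911 when replicate 2 or 3 of HSC or replicate 1 of PreMegE was left out).

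T cell genes from outside the pathway were set beside the rise in MPP. Of 16 such genes, 7 were called higher in MPP than in HSC and 1 lower (6.38% and 4.93% of all genes), and their summed level ran from 10.88 to 11.05 in MPP, 8.20 to 9.35 in HSC, 8.49 to 8.84 in PreMegE and 14.41 to 14.53 in T cells. Satb1, a chromatin organiser of lymphoid cells that is also on the MPP marker list, was at 9.82, 9.78 and 9.77 in MPP against 5.68, 5.68 and 5.64 in HSC. Klf2 was at 9.31, 9.19 and 9.68 in MPP against 8.50, 5.72 and 5.23 in HSC. Satb1 and Klf2 were the highest of the list in MPP, so the summed level there rests mostly on them. Il7r, the interleukin-7 receptor, was at 5.13, 5.34 and 5.06 in MPP, 3.02, 3.94 and 3.09 in HSC and 11.63 and 11.66 in T cells. Ms4a4b, the highest of the list in T cells (12.54 and 12.72), was at 4.90, 4.53 and 4.58 in MPP against 2.99, 4.30 and 3.38 in HSC. Ccr9 and S1pr1 were at 3.84 to 4.95 and 5.85 to 6.52 in MPP against 2.68 to 2.93 and 4.60 to 5.27 in HSC. Other genes of the list did not rise: Bcl11b, Lef1 and Ccr7 were at 3.28 to 3.51, 3.24 to 3.54 and 3.02 to 3.21 in MPP, within or next to the HSC range. Gata3 was lower in MPP, at 4.08, 3.90 and 4.01 against 4.44, 4.56 and 4.59 in HSC. Within the set, Cd3g and Cd247 were not called between MPP and HSC (limma adjusted p = 0.936 and 0.843). Whether T cell transcript entered the MPP samples was not tested. HSC replicate 2 held the most neutrophil transcript and Ighm at 9.04, against 5.04 and 4.71 in the other HSC arrays. Ighm was at 9.94 to 10.73 in MPP, at 9.35 in PreMegE replicate 1 against 3.57 to 4.36 in the other PreMegE arrays, and at 12.28 and 12.49 in T cells.

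**Figure D4:**
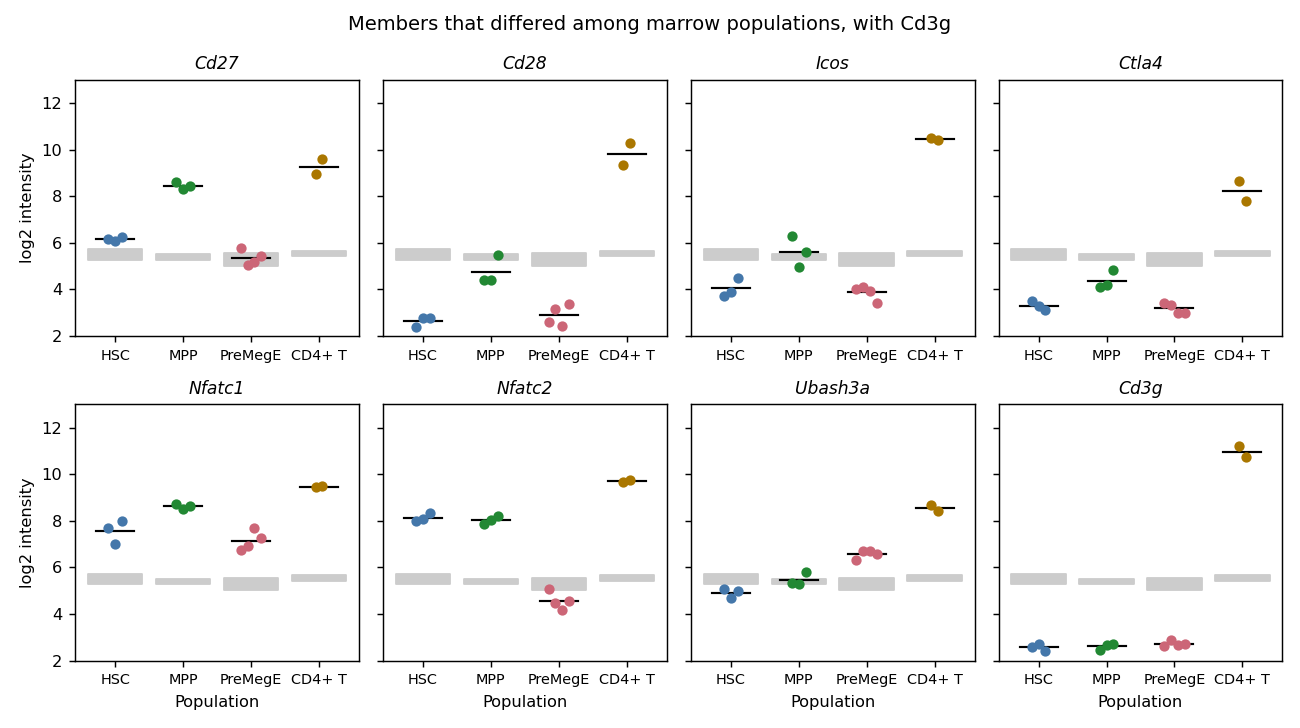
Log2 intensity of 8 genes on each array (points) with population means (lines), and the range of the reference level over the arrays of a population (grey). Cd27, Cd28, Icos, Ctla4 and Nfatc1 are higher in MPP than in HSC, Nfatc2 drops in PreMegE, Ubash3a rises there, and Cd3g is flat in marrow.

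In PreMegE, calls among the set and among all genes were lower more often than higher. Against HSC, 2 genes were higher and 8 lower (11.9% and 17.0% of all genes), with a median of -0.17 against -0.01 over all genes. The 8 are 24.2% of the set, near the share of all genes. Against MPP, 2 were higher and 13 lower (13.5% and 19.5% of all genes), with a median of -0.24 against 0.02. With HSC replicate 2 and PreMegE replicate 1 both left out, 7 genes were called against HSC and 14 against MPP. Lower than in both HSC and MPP were 6 genes (18.2%, against 12.9% of all genes): Cd27, Thy1, Lat, Vav1, Ptpn22 and Nfatc2.

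Nfatc2 had the largest difference in the set between marrow populations. It was read at 8.01, 8.06 and 8.33 in HSC, 7.87, 8.02 and 8.19 in MPP, 5.07, 4.46, 4.18 and 4.57 in PreMegE, and 9.67 and 9.75 in T cells. The PreMegE arrays lay apart from all others, 3.56 ± 0.18 below HSC (limma adjusted p = 2.1e-09), and below the reference level on all 4. Of its 6 probe sets the next 2 by brightness, which were read between 4.04 and 6.04 on every array, did not show this fall (-0.14 and -0.26, adjusted p = 0.745 and 0.379) or the T cell rise over HSC (-0.54 and -0.21).

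Thy1 was at 4.49, 5.10 and 4.82 in HSC, 4.57, 4.35 and 3.98 in MPP, and 3.33, 3.54, 2.85 and 3.85 in PreMegE. Low Thy1 on the surface is a long-used feature of mouse stem cells, and here its level in PreMegE was 1.41 ± 0.22 below HSC (limma adjusted p = 1.4e-04). Lat was 0.78 ± 0.14 below HSC in PreMegE (adjusted p = 5.7e-04), with no overlap of the arrays. Vav1 was 0.87 ± 0.19 lower (adjusted p = 0.00255) and Ptpn22 0.97 ± 0.19 lower (adjusted p = 0.00131), with Ptpn22 at 6.91, 6.28 and 6.74 in HSC and 5.27, 5.55, 5.82 and 6.06 in PreMegE. Cd27 was 0.80 ± 0.19 lower (adjusted p = 0.00476). Zap70 was 0.54 ± 0.17 lower on its brightest probe set (adjusted p = 0.0282), a call lost when any 1 of replicates 1 and 2 of HSC or 3 and 4 of PreMegE was left out (0.0657 to 0.119).

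Ubash3a went the other way. It was read at 5.07, 4.71 and 4.98 in HSC, 5.34, 5.28 and 5.79 in MPP, 6.33, 6.69, 6.72 and 6.57 in PreMegE, and 8.70 and 8.44 in T cells. The 4 PreMegE arrays were above all HSC and MPP arrays, by 1.66 ± 0.16 over HSC (limma adjusted p = 2.0e-06), and its second probe set was likewise highest in PreMegE among marrow arrays (4.82 to 6.22 against 3.73 to 4.31). Trat1 was the other gene called higher in PreMegE than in both, a pattern of 6.06% of the set and 8.09% of all genes. It was at 4.37, 4.11, 3.76 and 3.85 against 3.62, 3.36 and 3.48 in HSC. Its differences of 0.53 ± 0.16 from HSC and 0.45 ± 0.16 from MPP (adjusted p = 0.0216 and 0.0449) were small. The first was lost when any 1 of 4 arrays was left out (0.0513 to 0.0845): replicates 2 and 3 of HSC, or 1 and 2 of PreMegE. The second was lost when any 1 of 8 arrays was left out (0.0503 to 0.198): either T cell array, replicates 1 and 3 of HSC, 2 and 3 of MPP, or 1 and 2 of PreMegE.

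No call in any of the 3 marrow comparisons was made for 16 genes (48.5%, against 58.6% of all genes). They were Cd3e, Cd3g, Cd247, Cd4, Cd2, Cd5, Fyn, Txk, Lcp2, Skap1, Fyb, Sh2d1a, Themis, Plcg1, Rasgrp1 and Ptprc. For Fyn, for example, the HSC arrays were at 7.81, 7.97 and 8.22, the MPP arrays at 7.87, 7.88 and 7.82 and the PreMegE arrays at 7.74, 7.51, 8.13 and 7.84. A missing call does not show that levels were equal. For Fyb the 2 probe sets differed, since the second was at 8.49 to 8.74 in PreMegE against 7.66 to 7.85 in HSC, whereas the brightest was at 7.93 to 8.75 against 8.59 to 9.02.

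**Figure D5:**
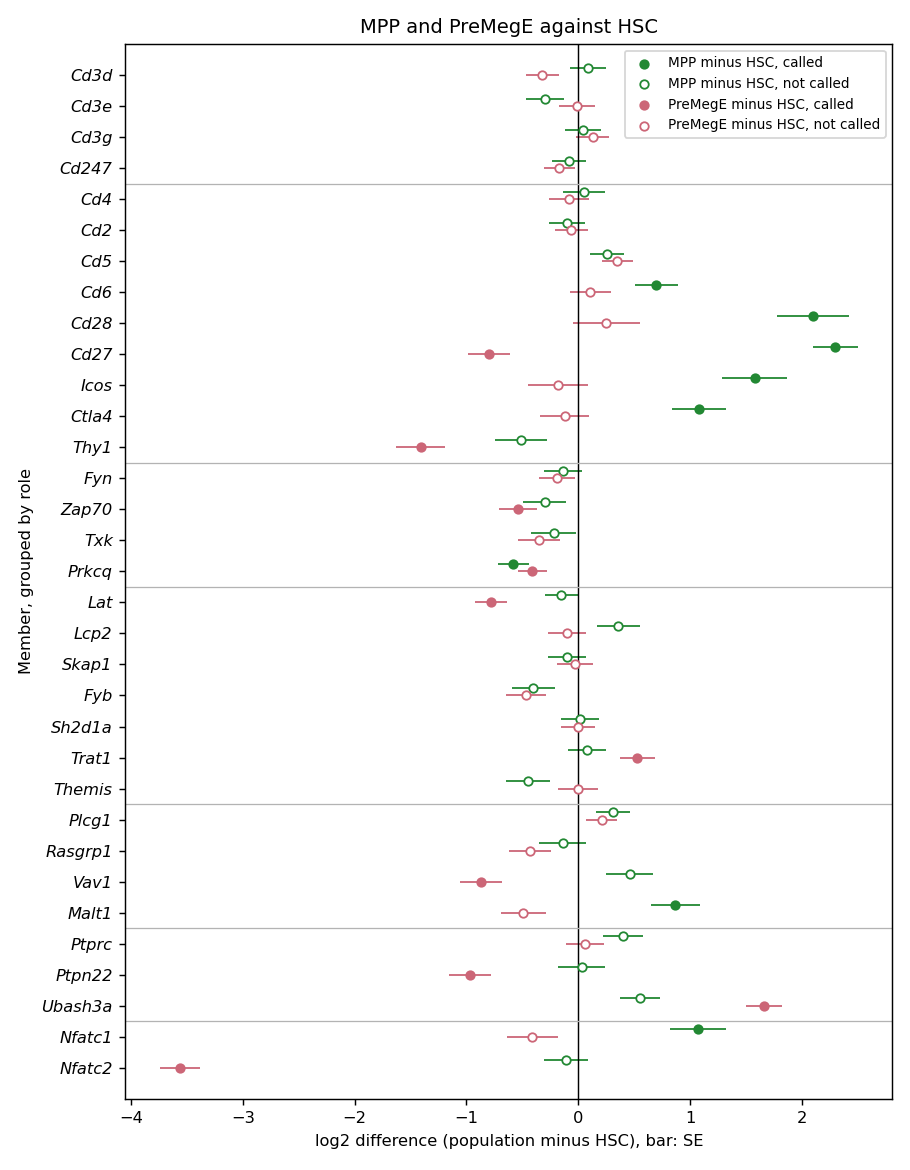
Log2 difference of MPP (green) and PreMegE (red) from HSC for the 33 genes, with standard errors as bars and filled points where the limma adjusted p was under 0.05. Cd27 and Cd28 lie farthest to the right in MPP, Nfatc2 farthest to the left in PreMegE, and the 4 receptor complex genes near 0 in both.

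Among 19 genes with more than 1 probe set, the next brightest was called in the same direction for 15 of the 18 called in each T cell comparison, for 2 of 4 called between MPP and HSC, for 2 of 5 between PreMegE and HSC and for 4 of 8 between PreMegE and MPP.

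Other genes of the pathway were read in the same fit. Of 30 other genes acting near the receptor, 15 were higher and 5 lower in T cells than in HSC (17.0% and 20.8% of all genes), with a median difference of 0.50. Evl, an actin regulator, was at 10.68 and 10.21 in T cells against 3.73, 4.18 and 4.32 in HSC (6.37 ± 0.22, limma adjusted p = 5.5e-12), and Tespa1, Grap2 and Sh2d2a, which encode T cell adaptors, were higher by 4.54 ± 0.26, 4.02 ± 0.19 and 3.34 ± 0.19. In MPP 5 were higher and 3 lower than in HSC (6.38% and 4.93% of all genes), among the latter the adaptor Nck1 and the RAS activator Sos1, which fell by 1.70 ± 0.21 and 1.54 ± 0.26. In PreMegE 4 were higher and 10 lower (11.9% and 17.0% of all genes), with Nck2 1.51 ± 0.18 higher and the exchange factor Arhgef6 lower (-1.85 ± 0.14). Of the 2 receptor chain genes measured, the probe set annotated to Trbv1, a beta chain variable segment, was at 12.33 and 12.64 in T cells and 2.53 to 3.15 in marrow. The one annotated to Tcra was at 2.33 and 2.67 in T cells, within its marrow range of 2.25 to 3.16. The symbols are those of the array annotation, and which chain transcripts these probe sets detect was not tested.

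Of 34 other downstream genes, 16 were higher and 6 lower in T cells than in HSC (17.0% and 20.8% of all genes; median 0.40), and the largest differences were falls. Plcg2, which encodes the phospholipase that B cells and platelets use, was at 9.98, 10.11 and 9.62 in HSC and 5.93 and 5.51 in T cells (-4.18 ± 0.22, limma adjusted p = 4.4e-10), the reverse of Plcg1 on its brightest probe set. Prkcb, a protein kinase C gene, was 3.14 ± 0.22 higher. Fos and Jun encode the AP-1 factors that pair with NFAT. Fos was at 12.88, 12.76 and 12.79 in HSC, 13.18, 13.09 and 13.27 in MPP, 4.54, 6.19, 5.92 and 5.55 in PreMegE, and 10.10 and 8.49 in T cells. Both were therefore highest in HSC and MPP, with T cells lower than HSC by 3.52 ± 0.42 and 3.44 ± 0.27 and PreMegE lower by 7.26 ± 0.36 and 5.21 ± 0.23. In MPP 5 downstream genes were higher than in HSC and 0 lower (6.38% and 4.93% of all genes), led by Bcl10, the partner of MALT1 (1.04 ± 0.21), and Nfkbia, an inhibitor of NF-kappa B (1.02 ± 0.15). In PreMegE 9 were higher and 10 lower than in HSC (11.9% and 17.0% of all genes).

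Of 33 other inhibitors, 22 were higher and 5 lower in T cells than in HSC (17.0% and 20.8% of all genes), with a median of 1.34. The inhibitory receptor Btla was at 10.29 and 10.40 in T cells against 3.59, 4.35 and 3.24 in HSC (6.62 ± 0.26, limma adjusted p = 1.8e-11). Dgka, a lipid kinase that removes diacylglycerol, the adaptor Sit1 and the receptor Pdcd1 were higher by 5.84 ± 0.24, 5.38 ± 0.21 and 4.12 ± 0.21. In MPP 6 were higher than in HSC and 2 lower (6.38% and 4.93% of all genes). Tnfaip3, which encodes the NF-kappa B inhibitor A20, was at 10.44, 10.65 and 10.67 in MPP against 7.91, 6.72 and 6.86 in HSC and 9.03 and 8.29 in T cells (3.42 ± 0.28 above HSC, adjusted p = 1.1e-06), and Btla was 1.91 ± 0.23 above HSC in MPP. In PreMegE 4 were higher and 10 lower (11.9% and 17.0% of all genes), with Sla and Spry1 lower than in HSC (-2.45 ± 0.22 and -2.21 ± 0.27).

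The B cell and Fc receptor counterparts of the pathway moved in both directions in T cells, 6 of 15 higher and 5 lower than in HSC (17.0% and 20.8% of all genes), with a median of 0.15. Syk, the sister kinase of ZAP-70, was at 9.19, 9.28 and 9.26 in HSC, 9.05, 9.02 and 9.26 in MPP, 9.69, 9.49, 9.80 and 9.66 in PreMegE, and 6.95 and 6.07 in T cells (-2.73 ± 0.21 from HSC, limma adjusted p = 4.9e-08). Btk, the TEC kinase of B cells, and Dapp1, an adaptor of B cells, were lower in T cells by a difference of -4.14 ± 0.21 and -4.12 ± 0.15, whereas Cd22 was 2.25 ± 0.30 higher, beside the B cell markers found in the T cell arrays. In MPP 3 were higher and 1 lower than in HSC (6.38% and 4.93% of all genes), with Tyrobp, the adaptor DAP12, and Blnk, the B cell linker, higher by 2.16 ± 0.29 and 1.95 ± 0.20. In PreMegE 0 were higher and 6 lower (11.9% and 17.0% of all genes), with Cd72 and Pik3ap1 lowest against HSC (-2.15 ± 0.16 and -1.97 ± 0.17). All marrow arrays therefore read Syk, Btk and Dapp1 above their T cell levels, and Cd3g, Cd247 and Rasgrp1 below theirs.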

How the data were processed

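Total RNA of 12 sorted samples was hybridised to Affymetrix arrays. The deposited values are 1 linear intensity per probe set, summarised by the authors with RMA per the submitters' processing notes. The version, and which arrays were normalised together, are not given in the sources used here. The planned test foresaw linear values, and log2 was taken first, with no further normalisation or filter. RMA pulls low intensities towards a floor, so that differences of dim probe sets are understated.

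Control probe sets (64 of 45101) were left out. In the platform annotation 34945 probe sets carry 1 gene symbol, 932 carry several and 9160 carry none. The brightest single-symbol probe set stood for a gene, and 9010 of 18193 genes had more than 1. A model with a mean per population was fitted to all 12 arrays with limma 3.58.1 in R 4.3.3 (lmFit, eBayes, two-sided), and p-values were adjusted by Benjamini-Hochberg over all genes. Further probe sets were fitted apart. Either the next brightest took the place of the brightest, or all 34945 single-symbol probe sets were fitted together. Their p-values were adjusted over the genes or probe sets of that fit. The 2 T cell arrays borrow spread from the other populations, and the number of arrays limits the precision. The fit was tested on simulated data.

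All genes of the set are named. Of each other pathway list, up to 4 called genes with the largest difference between T cells and HSC are named, and up to 2 for MPP and PreMegE against HSC. The genes of the set and the lists were chosen with earlier results of these data known. PreMegE replicate 4 carries the number 3 in its description. Promoters and gene order are from RefSeq, GRCm38.p6. Figures were drawn with matplotlib 3.10.9.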

Additional observations from a re-analysis of the deposited data

How the results depend on the processing

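The alternatives were quantile and cyclic loess normalization, another probe set or the mean of all, fits of 2 populations only, eBayes with trend and robust settings, the replicate block, averaged PreMegE replicates 3 and 4, and each array left out. They also included leaving out genes with a mean in the lowest quartile, and the settings chosen after seeing the data, which are named below. All 25 reversals but 1 came with another probe set, whereas in MPP against HSC 3 of 8 calls held under every alternative other than the probe set and 2 of 8 under all, and in PreMegE against HSC 5 and 4 of 10. On the next brightest probe set, which 19 genes have, 17 were called in each T cell comparison, 2 in MPP against HSC, 4 in PreMegE against HSC and 7 in PreMegE against MPP, and 4, 6, 4 and 14 exceeded the reference level in HSC, MPP, PreMegE and T cells; fewer genes enter these counts. With the highest but 1 non-blood gene as the reference, 8 exceeded it in HSC and 6 in MPP.

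Of 3017 recomputed differences of single genes, 25 reversed. Zap70 rose in T cells over HSC, MPP and PreMegE by 2.83, 2.87 and 3.07 on its next brightest probe set, 4.76, 4.72 and 4.75 on its dimmest, and 2.19, 2.29 and 2.45 on the mean of all, and its PreMegE difference from HSC was 0.01 on the dimmest. For Plcg1 the next brightest gave -0.55, -0.35 and -0.77. For Vav1 it gave -1.19, -1.61 and -0.35, the mean of all gave -0.36 from HSC and -0.80 from MPP, and leaving out 1 array moved the difference from MPP between -0.08 and 0.08. For Nfatc2 the next brightest gave -0.54, -0.03 and -0.40, the one after it -0.21 from HSC and -0.01 from MPP, and the PreMegE difference from MPP was 0.37 on the next brightest. The cause was not tested.

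Leaving out 1 array gave 5 to 8 calls in MPP against HSC, where 8 were made. HSC replicate 1 as the only HSC array, chosen after seeing the data because earlier results showed the HSC arrays to differ in sex-linked genes, gave 3 calls in MPP against HSC and 5 in PreMegE against HSC, with fewer samples. The probe set after the next brightest, and leaving out HSC replicate 2 with PreMegE replicate 1, were also chosen after seeing the data. The replicate numbers were not used to pair the samples: deviations of arrays with the same number correlated between -0.0046 and 0.1559 for HSC and MPP and between -0.053 and 0.4128 for HSC and PreMegE, not all over 0.1. With so few arrays in a population, deviations from its mean cannot show that samples were unpaired. With the replicate block, 32, 32, 33, 8, 11 and 15 genes were called in T cells against HSC, MPP and PreMegE, MPP against HSC, PreMegE against HSC and PreMegE against MPP, where 32, 32, 32, 8, 10 and 15 were without it. Cd3d was no longer called in PreMegE against MPP with the block (adjusted p = 0.0762), and Zap70 was called lower in T cells than in PreMegE (0.0294).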
